A study of Homo sapiens with 9 samples.

Results

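The tumour necrosis factor (TNF) superfamily is the group of ligands that includes TNF, FAS ligand (FASLG) and TRAIL (TNFSF10), together with their receptors. Its members were taken from the table of estimated counts by gene symbol, as all TNFSF and TNFRSF symbols plus TNF, LTA, LTB, LTBR, FAS, FASLG, CD40, CD40LG, CD27, CD70 and NGFR. The rule gave 43 of the 29740 genes in the table, 17 ligands and 26 receptors, and used no measured value. RNA had been sequenced from HMEC-1, an immortalised line of human dermal microvascular endothelial cells, in 3 groups of 3 libraries. CTRL denotes untreated HMEC-1, TMAO 24H denotes HMEC-1 given 50 µM trimethylamine-N-oxide (TMAO, a metabolite that the gut microbiome and liver make from dietary nutrients) for 24 h, and TMAO 48H the same dose for 48 h. The study treated the cells in medium with reduced serum, and the medium of the untreated controls is not stated. Controls collected for the shorter and the longer exposure were combined in the study. How long each had been cultured is not stated, and effects of culture time, of any difference in medium and of TMAO cannot be told apart. The study asked how the endothelial transcriptome differs after the shorter and the longer exposure, with TNF signalling among its main pathways. HMEC-1 is a single cell line. The study states for its experimental data in general that experiments were repeated independently, but neither this statement nor the labels say whether the RNA libraries of a group came from separate cultures. If they did not, p-values measure only technical spread between these libraries.

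Most ligands of the family are made as trimers on the cell membrane, and several are shed from it. Receptors with a death domain, such as TNFRSF1A, FAS and the TRAIL receptors TNFRSF10A and TNFRSF10B, recruit adaptors such as FADD or TRADD and can start caspase activation. Receptors without a death domain, such as TNFRSF1B, CD40 and LTBR, bind TRAF adaptors and activate NF-κB, and decoy receptors bind ligand without a complete signal. Endothelial cells respond to TNF mainly through TNFRSF1A with adhesion molecules and chemokines, and they are known to make TNFSF15, a ligand that restrains endothelial growth.

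Total estimated counts ranged from 29160868 to 30069548 per library in CTRL, from 32179428 to 36927373 at TMAO 24H and from 25205756 to 32563494 at TMAO 48H. Values below are normalised CPM, counts scaled to a common library size by the TMM method. In a library of this depth, 3 counts corresponded to 0.0869 to 0.115 CPM, the most that a count of 0 allows, for counting error only. A pair of libraries stood apart. TMAO 24H replicate 1 had 31.5% ribosomal RNA counts, where the others had 1.64% to 7.46%, and 49 genes, 35 of them histone genes, more than 3 times above every other library. TMAO 48H replicate 3 had 38 genes more than 3 times below every other library, among them the keratin KRT5, at 4.12 CPM there against 25.1 to 53.6 CPM elsewhere. In that library 8 intestinal epithelial genes, chosen after their values were seen (CDX2, VIL1, CDH17, GPA33, CEACAM5, LGALS4, KRT20 and GUCY2C), summed to 3.86 CPM, against 22.6 to 32.5 CPM in the others. Of the TNF superfamily, 0 members were among either set of genes. The sets held only 49 and 38 of 14740 tested genes, so this says little about 27 tested members. A gene counted as low only if every other library had over 1 CPM, so CD70, NGFR and TNFRSF19 could not be counted. Results are given below with and without these libraries.

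All 14 endothelial markers examined were expressed, led by CDH5 (VE-cadherin). Their summed level was 3073 to 3410 CPM in CTRL, 3058 to 3249 CPM at TMAO 24H and 2712 to 2950 CPM at TMAO 48H. At TMAO 48H, 8 of the 14 were lower than in CTRL with an adjusted p-value under 0.05 and 0 were higher, and ROBO4 (log2 fold change -0.33) and TIE1 (-0.26) had the smallest p-values. Over all tested genes, 5.29% passed as lower and 5.13% as higher at TMAO 48H. VWF, FLT1, ESAM and EMCN, 4 of the 14, had log2 fold changes above 0 and did not pass. The count of 8 was 3 without CTRL replicate 2 or TMAO 48H replicate 2, 4 without CTRL replicate 1 and 5 without TMAO 48H replicate 1. Leukocyte markers, which matter here because T and B cells and monocytes make many TNF superfamily ligands, were mostly at or near 0, with CD14, LYZ and CD68 as exceptions. Of 15 such markers, 12 had under 10 counts in each library, and CD3E, MS4A1, FCGR3A and GNLY were at 0 in all of them. The monocyte marker CD14 had 21 to 44 counts, or 0.774 to 1.31 CPM, in each library, and LYZ had at most 12 counts. CD68, the most abundant of them, is also expressed outside leukocytes and had 18.2 to 22.0 CPM. Their summed level was 19.7 to 22.5 CPM in CTRL, 21.7 to 23.2 CPM at TMAO 24H and 22.4 to 24.0 CPM at TMAO 48H. The fibroblast and smooth muscle list, led by the collagen gene COL1A1, summed to 936 to 1089 CPM in CTRL, 945 to 1021 CPM at TMAO 24H and 593 to 651 CPM at TMAO 48H, where COL1A2 and COL1A1 were lower and ACTA2 higher among its 7 tested genes. The 7 epithelial markers, led by KRT18, summed to 773 to 844 CPM in CTRL, 732 to 779 CPM at TMAO 24H and 632 to 720 CPM at TMAO 48H, where KRT18 was lower, though 0 of them passed without CTRL replicate 2 or TMAO 48H replicate 2. The part of these markers in the results below was not tested, and in bulk RNA fewer cells of a type and less RNA per cell cannot be told apart.

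Upstream sequences are shown for TNFSF15, FAS and TNFRSF25, 3 of the 5 members that passed the test at TMAO 48H against CTRL, so that the letters before their starts can be read beside their levels. They are the 250 bases before the transcription start in RefSeq on GRCh38.p14. Of the 43 members 28 matched an entry, among them 16 of the 27 tested members, and the others were not searched. The windows were searched on both strands for AP-1 (TGANTCA), the core of the interferon-stimulated response element, the GC box (GGGCGG), the κB consensus and the p53 half-site. Of 35116 windows of this length, 6.57% held AP-1, 3.02% the interferon element core, 42.6% a GC box, 5.21% a κB match and 5.57% a p53 half-site. Capitals mark the matches, written 5′ to 3′ on the gene's strand.
TNFSF15, chr9:114792531-114792780, minus strand: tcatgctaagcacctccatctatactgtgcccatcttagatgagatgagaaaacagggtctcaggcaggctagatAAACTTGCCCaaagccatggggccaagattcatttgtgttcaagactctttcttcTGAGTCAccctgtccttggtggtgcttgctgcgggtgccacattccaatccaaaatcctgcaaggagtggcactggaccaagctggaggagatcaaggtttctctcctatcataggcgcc
FAS, chr10:88990548-88990797, plus strand: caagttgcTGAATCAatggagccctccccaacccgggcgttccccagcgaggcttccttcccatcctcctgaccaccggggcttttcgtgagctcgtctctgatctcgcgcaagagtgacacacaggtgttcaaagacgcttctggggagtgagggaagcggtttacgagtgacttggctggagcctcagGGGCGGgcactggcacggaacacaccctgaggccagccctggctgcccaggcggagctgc
TNFRSF25, chr1:6466174-6466423, minus strand: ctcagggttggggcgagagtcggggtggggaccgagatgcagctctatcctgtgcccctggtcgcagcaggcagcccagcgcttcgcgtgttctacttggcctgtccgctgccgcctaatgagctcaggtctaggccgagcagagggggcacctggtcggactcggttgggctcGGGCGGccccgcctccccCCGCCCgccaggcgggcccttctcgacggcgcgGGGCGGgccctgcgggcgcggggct
TNFSF15 held a p53 half-site at positions -175 to -166 and an AP-1 match at -120 to -114 from the start. FAS held an AP-1 match at -242 to -236 and a GC box at -60 to -55 in the first of its 3 listed windows, the second window held a κB match at -157 to -148, a p53 half-site at -122 to -113 and GC boxes at -63 to -58 and -52 to -47, and the third held a GC box at -176 to -171. TNFRSF25 held 3 GC boxes, at -76 to -71, -58 to -53 and -25 to -20. The window of TNFSF18, which also passed, held no match and is not printed, and TNFRSF10B was not among the members matched to an entry. Among the tested members that had a window and did not pass at 48H, LTBR and TNFRSF19 also held a p53 half-site, TNFSF13 and TNFRSF14 a κB match, and TNFSF9, TNFSF10 and TNFRSF1B the interferon element core. The shares above are per window, and members with several windows, such as FAS, had more places for a match. A match describes the sequence and was not tested as a site.

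HMEC-1 transcribed many receptors of the family at high levels and few of the ligands. Levels between genes are compared per kilobase of transcript, with the median length of protein-coding transcripts in GENCODE 29, and averaged over all 9 libraries. Which transcripts of a gene were expressed is not known, and the order depends on the length used. Without division by length, TNFRSF10B (length 2934.5 bases) had a CTRL mean of 169 CPM and TNFRSF1A (1201 bases) 141 CPM, the reverse of the order below. The receptors with the highest levels were TNFRSF1A (the main TNF receptor of most cells) at 115 CPM per kb, TNFRSF12A (the receptor of TWEAK) at 100.4 CPM per kb, LTBR (the lymphotoxin-β receptor) at 81.2 CPM per kb and TNFRSF10B (a TRAIL receptor with a death domain) at 60.8 CPM per kb. TNFRSF14 (the receptor of LIGHT) followed at 30.2 CPM per kb and TNFRSF1B (the second TNF receptor) at 25.6 CPM per kb. Among ligands, TNFSF10 (TRAIL) had the highest level, 11.1 CPM per kb, followed by TNFSF12 (TWEAK) at 8.72 and TNFSF13 (APRIL) at 5.07 CPM per kb. TNFSF18 (GITR ligand) had 2.49, TNFSF15 (TL1A) 1.57, TNFSF4 (OX40 ligand) 0.994, TNFSF9 (4-1BB ligand) 0.731 and CD70 0.460 CPM per kb. These 8 ligands and 19 of the 26 receptors passed edgeR's filter on low counts and were tested, 27 members in all. The plot of levels by library shows that libraries of one gene lay close together compared with the differences between genes, except for CD70, TNFRSF13C (the BAFF receptor), NGFR (the p75 neurotrophin receptor) and TNFRSF19.

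**Figure D1:**
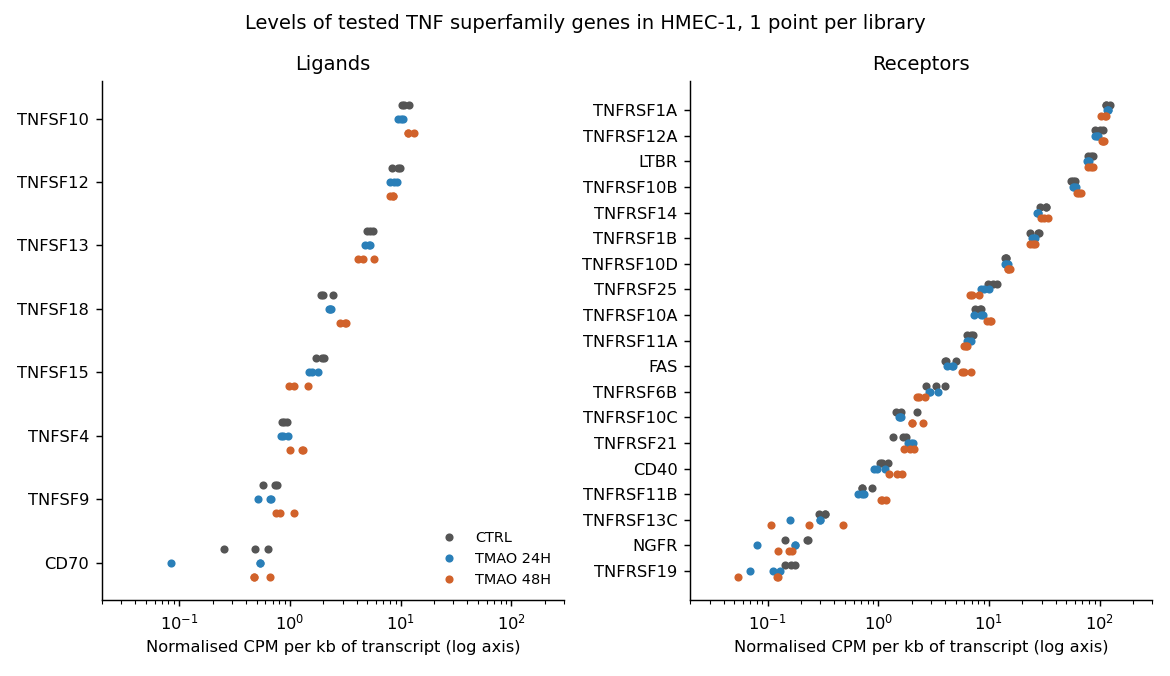
Level of each tested ligand (left) and receptor (right) in HMEC-1, in normalised CPM per kb of transcript on a log axis, with 1 point per library and colours for CTRL, TMAO 24H and TMAO 48H. Receptors reach 115 CPM per kb on average (TNFRSF1A), while the ligand with the highest level, TNFSF10, averages 11.1 CPM per kb.

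The remaining 16 members, 9 ligands and 7 receptors, did not reach the filter. TNF and FASLG each had 1 count in TMAO 24H replicate 1 and were at 0 in the other 8 libraries, so neither classical death ligand was detectable at this depth beyond single reads. CD40LG, TNFSF14 (LIGHT), TNFRSF13B and TNFRSF18 (GITR) were at 0 in all 9 libraries. LTA had at most 4 counts in a library, LTB 4, TNFSF8 (CD30 ligand) 1, TNFSF11 (RANKL) 5 and TNFSF13B (BAFF) 11. Among receptors, TNFRSF17 had at most 2 counts, TNFRSF9 (4-1BB) 3, and TNFRSF4 (OX40), TNFRSF8 (CD30) and CD27 each 13. Counts of CD27 were fractional (more than 0.01 from a whole number, here and for other genes) in 7 of 9 libraries, which marks reads shared between genes, and its antisense gene CD27-AS1 had 4.24 to 6.53 CPM.

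Ligands and receptors of the same pair were often present at very different levels. TNFRSF1A and TNFRSF1B were at 125 to 149 and 49.5 to 60.3 CPM per library, whereas their ligand TNF was limited to a single count. LTBR had 83.1 to 94.6 CPM, and of its ligands LTB had at most 4 counts and TNFSF14 had 0. FAS had 5.51 to 9.57 CPM with FASLG at a single count. The reverse held for TNFSF18, at 3.81 to 6.43 CPM with its receptor TNFRSF18 at 0, and for TNFSF4 and TNFSF9, whose receptors TNFRSF4 and TNFRSF9 did not reach the filter. Both members of a pair were expressed for TNFSF10 and its receptors TNFRSF10A and TNFRSF10B, for TNFSF12 and TNFRSF12A, and for TNFSF15 and TNFRSF25 (DR3, a death domain receptor).

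After 24H of TMAO, 0 of 8 ligands and 0 of 19 receptors differed from CTRL with an adjusted p-value under 0.05. Of all 14740 tested genes, 14 passed at this time-point (0.0950%), all lower, and DESeq2 also called 0 members. With the study's 1.4-fold threshold 0.0475% of all genes and 0 members passed. At an unadjusted p under 0.05, TNFRSF21 (DR6) was higher and TNFRSF14 and TNFRSF25 were lower among receptors, with 0 ligands in either direction, where 2.77% of all genes were higher and 4.47% lower. TNFRSF14 had 27.1, 24.1 and 27.1 CPM in CTRL replicates 1 to 3 and 22.9, 22.6 and 23.3 CPM at TMAO 24H. The treated libraries lay below all controls (log2 fold change -0.19 ± 0.0656 standard error, SE, adjusted p = 0.546), as was so for 7.52% of all genes and, among receptors, also for TNFRSF19. TNFRSF21 had 4.87 to 6.38 CPM in CTRL and 6.68 to 7.45 CPM at TMAO 24H (log2 fold change 0.29, adjusted p = 0.664), with no overlap, as for 6.73% of all genes. The median log2 fold change at 24H was -0.11 over the 8 ligands and -0.081 over the 19 receptors, against -0.00042 over all tested genes. On the lower side were 7 ligands and 13 receptors, where 7397 of all 14740 tested genes were, and 0 of these members passed.

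After 48H of TMAO, 2 of 8 ligands and 3 of 19 receptors differed from CTRL. TNFSF18, FAS and TNFRSF10B rose, and TNFSF15 and its receptor TNFRSF25 fell. Over all tested genes 10.4% passed at 48H, 5.13% higher and 5.29% lower, so that the 3 receptors of 19 are near this background and the numbers are too small to set the ligands apart from it. Requiring also a change of at least 1.4-fold, as the study did, left 2 ligands and 2 receptors, without TNFRSF10B, where 1.80% of all genes passed. The median log2 fold change was 0.19 over ligands and 0.022 over receptors, against 0.0040 over all tested genes. Libraries did not overlap with CTRL for 2 ligands higher and 1 lower and for 6 receptors higher and 5 lower, where 14.7% of all genes were higher and 13.0% lower in this way. The plot of fold changes shows both time-points side by side, and the comparisons share the CTRL libraries.

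**Figure D2:**
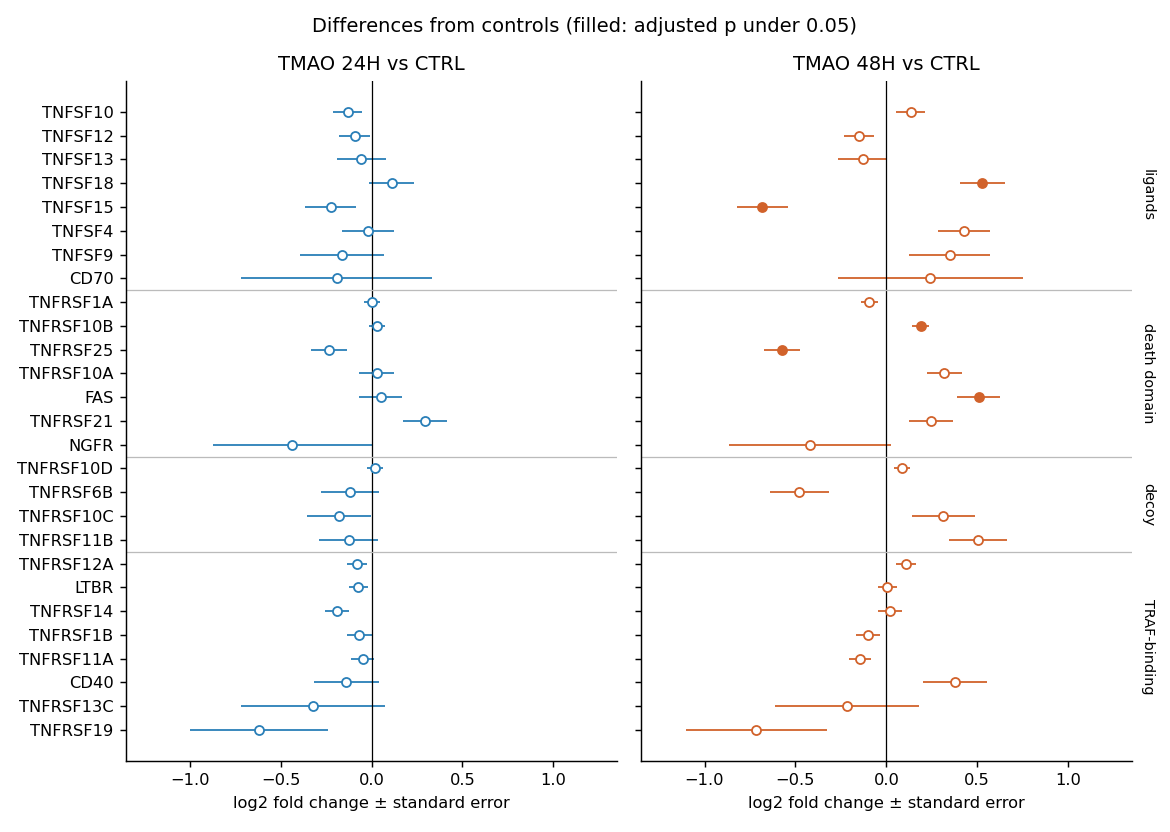
Log2 fold change of each tested member against CTRL at TMAO 24H (left) and TMAO 48H (right), with the standard error from edgeR as bars, in rows grouped as ligands, death domain receptors, decoy receptors and TRAF-binding receptors. Filled points have an adjusted p-value under 0.05, and there are 0 at 24H and 5 at 48H (TNFSF18, TNFSF15, TNFRSF10B, TNFRSF25 and FAS).

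TNFSF15, the ligand of TNFRSF25, had the larger log2 change of the 2 members that fell at 48H with an adjusted p-value under 0.05. It had 9.63, 9.20 and 8.08 CPM in CTRL replicates 1 to 3, 8.51, 7.52 and 7.03 CPM at TMAO 24H and 4.67, 5.15 and 6.96 CPM at TMAO 48H. The 48H libraries lay below all libraries of the other groups, while the 24H libraries overlapped with CTRL. The mean went from 8.97 ± 0.800 (SD, n = 3) to 5.59 ± 1.21 (SD, n = 3) CPM, a 0.623-fold change (log2 fold change -0.68 ± 0.141 SE, adjusted p = 0.00897 with edgeR). The adjusted p was 0.00132 without TMAO 48H replicate 3 and 0.00738 without TMAO 24H replicate 1, and 0.0513 without TMAO 48H replicate 2. At 24H the log2 fold change was -0.22 (adjusted p = 0.800).

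TNFRSF25 moved in the same direction as its ligand. It had 17.0, 14.1 and 15.5 CPM in CTRL, 14.4, 13.1 and 12.2 CPM at TMAO 24H and 10.03, 9.70 and 11.6 CPM at TMAO 48H. Again the 48H libraries lay below all of the others. The mean went from 15.5 ± 1.43 (SD, n = 3) to 10.5 ± 1.02 (SD, n = 3) CPM, a 0.672-fold change (log2 fold change -0.57 ± 0.0974 SE, adjusted p = 0.00294). It passed with each of the 9 libraries left out in turn, with an adjusted p of 0.00201 without TMAO 48H replicate 3 and 0.00246 without TMAO 24H replicate 1. At 24H the log2 fold change was -0.23 (standard error 0.0968, adjusted p = 0.660).

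TNFSF18, which costimulates T cells and is expressed by endothelium, was the ligand that rose. Its levels were 4.96, 3.99 and 3.81 CPM in CTRL, 4.60, 4.50 and 4.68 CPM at TMAO 24H and 5.66, 6.31 and 6.43 CPM at TMAO 48H. The 48H libraries were above all of the others and those at 24H within the range of CTRL. The mean rose from 4.25 ± 0.619 (SD, n = 3) to 6.14 ± 0.413 (SD, n = 3) CPM, or 1.44-fold (log2 fold change 0.53 ± 0.123 SE, adjusted p = 0.0164). The adjusted p was 0.0402 without TMAO 48H replicate 3 and 0.0214 without TMAO 24H replicate 1. It missed the threshold without CTRL replicate 2 (0.0732), CTRL replicate 3 (0.0566) or TMAO 48H replicate 2 (0.0677).

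TNFSF10, the ligand with the highest level, did not pass in any comparison. It had 19.2, 21.5 and 18.4 CPM in CTRL, 16.8, 18.9 and 18.2 CPM at TMAO 24H and 20.7, 20.6 and 23.5 CPM at TMAO 48H. The treated libraries of each time-point overlapped with CTRL, with a log2 fold change at 24H of -0.13 (adjusted p = 0.790) and at 48H of 0.13 (adjusted p = 0.311). TNFSF12, the ligand of TNFRSF12A, had 12.9, 15.3 and 14.7 CPM in CTRL, 12.4, 14.3 and 13.5 CPM at 24H and 13.1, 13.2 and 12.4 CPM at 48H (log2 fold change at 48H -0.15, adjusted p = 0.285). TNFSF13, known as a survival factor of plasma cells, had 5.09, 5.37 and 4.77 CPM in CTRL, 5.08, 4.59 and 4.97 CPM at 24H and 4.40, 5.56 and 3.93 CPM at 48H (log2 fold change at 48H -0.13, adjusted p = 0.596). Both genes overlapped with CTRL at each time-point. Their estimated counts were fractional in 7 of 9 libraries, the read-through gene TNFSF12-TNFSF13 had 0 to 0.854 CPM, and the split of reads between these genes is uncertain.

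The other 3 ligands had low levels. TNFSF4, a costimulatory ligand found on endothelium, had 2.91 to 3.28 CPM in CTRL, 2.84 to 3.34 CPM at 24H and 3.48 to 4.49 CPM at 48H, with no overlap between CTRL and 48H (log2 fold change 0.43 ± 0.142 SE, adjusted p = 0.0733). TNFSF4 passed when TMAO 48H replicate 3 was left out (adjusted p = 0.0317). TNFSF9 (log2 fold change 0.35, adjusted p = 0.359) and CD70 (log2 fold change 0.24, adjusted p = 0.812) overlapped with CTRL at 48H. The 95% interval of CD70 ran from -0.85 to 1.34, so that at its depth of 2 to 20 counts changes of either sign within this range remained possible.

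FAS was the death domain receptor with the larger rise. It had 5.51, 5.63 and 6.96 CPM in CTRL, 6.52, 6.41 and 5.80 CPM at TMAO 24H and 9.57, 8.31 and 7.87 CPM at TMAO 48H. The 48H libraries lay above all of the others, and the 24H libraries lay within the range of CTRL. The mean rose from 6.03 ± 0.804 (SD, n = 3) to 8.58 ± 0.881 (SD, n = 3) CPM, or 1.42-fold (log2 fold change 0.51 ± 0.118 SE, adjusted p = 0.0161). The adjusted p was 0.0151 without TMAO 48H replicate 3 and 0.0207 without TMAO 24H replicate 1. It was above the threshold without CTRL replicate 1 (0.0669), CTRL replicate 2 (0.0739) or TMAO 48H replicate 1 (0.0507).

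TNFRSF10B, the more abundant of the TRAIL receptors with a death domain, rose by less. Levels were 169, 176 and 163 CPM in CTRL, 171, 169 and 179 CPM at TMAO 24H and 185, 201 and 192 CPM at TMAO 48H. The 48H libraries were above those of both other groups. The mean rose from 169 ± 6.76 (SD, n = 3) to 193 ± 8.04 (SD, n = 3) CPM, or 1.14-fold (log2 fold change 0.19 ± 0.0447 SE, adjusted p = 0.0180), which is under the study's fold threshold. The adjusted p was 0.0335 without TMAO 48H replicate 3 and 0.0294 without TMAO 24H replicate 1. It missed the threshold without CTRL replicate 1 (0.0566), CTRL replicate 3 (0.0509) or TMAO 48H replicate 2 (0.0886).

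TNFRSF10A, the other TRAIL receptor with a death domain, had 8.16, 8.25 and 7.29 CPM in CTRL, 8.62, 8.35 and 7.21 CPM at 24H and 10.2, 9.32 and 10.03 CPM at 48H. Its 48H libraries were above all of the others, and the difference missed the threshold (log2 fold change 0.32 ± 0.0975 SE, adjusted p = 0.0544). TNFRSF1A had 138, 149 and 136 CPM in CTRL, 139, 142 and 143 CPM at 24H and 136, 125 and 136 CPM at 48H. Its 48H libraries lay just below CTRL (log2 fold change -0.094, adjusted p = 0.224), and the 95% interval of the log2 fold change ran from -0.19 to 0.0066. TNFRSF21 (log2 fold change 0.25 at 48H, adjusted p = 0.225) and NGFR (-0.42, adjusted p = 0.604) overlapped with CTRL at 48H. Of the 7 death domain receptors, all of them tested, 2 thus rose and 1 fell at 48H. Over all tested genes 5.13% rose and 5.29% fell, and 7 genes are too few to set apart from these shares.

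**Figure D3:**
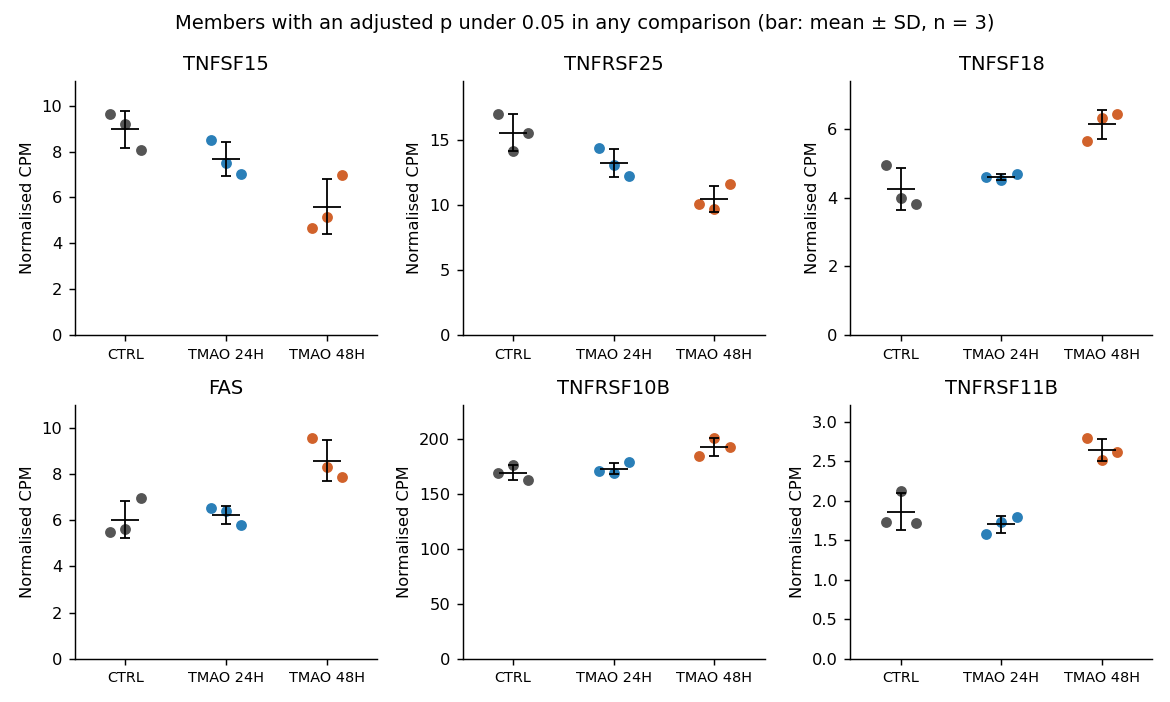
Normalised CPM in each library of the 6 members with an adjusted p-value under 0.05 in any comparison, on axes that start at 0, with the mean and SD of 3 libraries as bars. TNFSF15 and TNFRSF25 are lower, and TNFSF18, FAS, TNFRSF10B and TNFRSF11B higher, in all 3 TMAO 48H libraries than in any library of the other groups.

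Of the 4 decoy receptors, 0 passed at 48H against CTRL. TNFRSF11B (osteoprotegerin, a decoy for RANKL and TRAIL) had 1.73, 2.13 and 1.72 CPM in CTRL, 1.58, 1.73 and 1.80 CPM at 24H and 2.79, 2.52 and 2.61 CPM at 48H. The 48H libraries were above all of the others (log2 fold change against CTRL 0.50 ± 0.160 SE, adjusted p = 0.0625). The TRAIL decoys TNFRSF10C (log2 fold change 0.31, adjusted p = 0.280) and TNFRSF10D (0.087, adjusted p = 0.237) also missed the threshold, and TNFRSF10D, at 49.4 to 55.04 CPM over all libraries, was the most abundant decoy. TNFRSF6B (a decoy for FASLG, LIGHT and TL1A) had 3.11 to 4.60 CPM in CTRL and 2.54 to 3.04 CPM at 48H, without overlap (log2 fold change -0.48, adjusted p = 0.0773). The read-through gene RTEL1-TNFRSF6B overlaps it and was itself lower at 48H (mean 11.1 CPM in CTRL and 7.54 CPM at 48H, log2 fold change -0.56, adjusted p = 0.0216). Counts were fractional in 8 of 9 libraries for TNFRSF6B and in 9 of 9 for TNFRSF10C, so values of both decoys are uncertain.

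Of the 8 tested receptors that signal through TRAF adaptors, 0 passed at 48H. TNFRSF1B had 58.7, 60.3 and 49.8 CPM in CTRL, 55.1, 51.9 and 54.3 CPM at 24H and 49.5, 54.7 and 53.3 CPM at 48H (log2 fold change at 48H -0.10, 95% interval -0.24 to 0.043, adjusted p = 0.372). TNFRSF1B passed as lower when CTRL replicate 3 was left out (adjusted p = 0.0460). LTBR had 89.6, 94.2 and 84.3 CPM in CTRL, 85.1, 83.1 and 86.9 CPM at 24H and 89.9, 84.6 and 94.6 CPM at 48H. Its libraries overlapped in each comparison (log2 fold change at 48H 0.0053, 95% interval -0.11 to 0.12). TNFRSF12A had 79.3, 89.5 and 94.6 CPM in CTRL, 85.2, 80.8 and 82.9 CPM at 24H and 96.6, 94.0 and 93.0 CPM at 48H (log2 fold change 0.11, adjusted p = 0.254). CD40, through which T cells activate endothelium, had 1.76, 1.67 and 1.99 CPM in CTRL, 1.88, 1.58 and 1.47 CPM at 24H and 2.03, 2.37 and 2.65 CPM at 48H. CD40 did not overlap between CTRL and 48H, with the lowest 48H library next to the highest control (log2 fold change 0.38 ± 0.176 SE, adjusted p = 0.193).

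TNFRSF14 had 24.8, 26.5 and 28.2 CPM at 48H, overlapping with CTRL (log2 fold change 0.022, adjusted p = 0.877), and its counts were fractional in 9 of 9 libraries. TNFRSF11A (RANK), at 22.5 to 26.8 CPM over all libraries, was lower at 48H without overlap (log2 fold change -0.14, adjusted p = 0.160). TNFRSF19 had 0.608, 0.655 and 0.530 CPM in CTRL, 0.258, 0.477 and 0.412 CPM at 24H and 0.459, 0.203 and 0.454 CPM at 48H, or 7 to 20 counts in a library. Its libraries of each time-point lay below all controls, and neither difference passed (log2 fold change at 24H -0.62 ± 0.378 SE, adjusted p = 0.795, and at 48H -0.72 ± 0.389 SE, adjusted p = 0.269). TNFRSF13C had a log2 fold change at 48H of -0.22 with a standard error of 0.398 and did not pass.

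Between the time-points, FAS and TNFRSF11B were higher at 48H than at 24H, with 0 ligands passing in either direction. Over all tested genes 7.52% passed in this comparison, 3.77% higher and 3.76% lower, which is near the share of 2 of 19 receptors. TNFRSF11B rose 1.55-fold from 1.70 ± 0.108 (SD, n = 3) to 2.64 ± 0.140 (SD, n = 3) CPM (log2 fold change 0.63 ± 0.161 SE, adjusted p = 0.0308), and FAS rose 1.37-fold from 6.24 ± 0.389 (SD, n = 3) to 8.58 ± 0.881 (SD, n = 3) CPM (log2 fold change 0.46 ± 0.118 SE, adjusted p = 0.0318). Only TNFRSF11B met the 1.4-fold threshold, where 1.70% of all genes did. With the replicate block, 0 of 19 receptors passed, so both calls were lost. TNFRSF11B was not called by DESeq2 (adjusted p = 0.0733) or with the legacy fit. It missed the threshold without TMAO 24H replicate 1 (0.111), 2 (0.0837) or 3 (0.0765) and without TMAO 48H replicate 1 (0.0796), 2 (0.0747) or 3 (0.0560). FAS missed it without TMAO 24H replicate 1 (0.0602), 2 (0.0777) or 3 (0.128) and without TMAO 48H replicate 1 (0.0953) or 2 (0.0784), and had an adjusted p of 0.0289 without TMAO 48H replicate 3.

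Several members lay just above the threshold between the time-points, among them TNFRSF10B (log2 fold change 0.16, adjusted p = 0.0503), TNFRSF25 (-0.34, adjusted p = 0.0519), TNFSF18 (0.42, adjusted p = 0.0583), TNFSF10 (0.27, adjusted p = 0.0612), TNFRSF12A (0.19, adjusted p = 0.0614) and TNFSF15 (-0.46, adjusted p = 0.0692). Whether these members passed depended on the processing, except for TNFSF10, which did not pass in any fit. TNFRSF25 passed in 6 of the 8 other ways of processing, namely DESeq2 (adjusted p = 0.0305), RLE factors (0.0477), no filter on low counts (0.0483), at least 10 counts in every library (0.0432), the legacy fit (0.0470) and ribosomal RNA genes removed (0.0471), and missed the threshold with only the 2 groups compared (0.0593) and with the replicate block (0.0809). TNFSF18 passed in 3 of the 8, and TNFRSF10B and TNFRSF12A each in 2, TNFSF15 in 1 and TNFSF10 in 0. Without TMAO 48H replicate 3, TNFSF15 (adjusted p = 0.00758), TNFRSF25 (0.0234) and TNFSF4 (0.0345) passed. Without TMAO 48H replicate 1, TNFRSF10B (0.0271) and TNFRSF14 (0.0384) did, without CTRL replicate 1, TNFSF18 (0.0421) and TNFRSF12A (0.0201), and without CTRL replicate 3, TNFRSF10B (0.0382) and TNFRSF12A (0.0380). Besides TNFRSF25, DESeq2 called TNFSF15 (0.0312), TNFRSF10B (0.0249) and TNFRSF12A (0.0372) in this comparison. Libraries of the time-points did not overlap for 4 ligands higher and 1 lower at 48H and for 8 receptors higher and 4 lower, where 14.7% of all genes were higher and 12.9% lower in this way. The median log2 fold change from 24H to 48H was 0.34 over the 8 ligands and 0.077 over the 19 receptors, against 0.0040 over all tested genes.

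Genes that act downstream of the receptors were read as lists, by counts and medians only, beside the 5.13% of all tested genes that passed as higher and the 5.29% that passed as lower at 48H against CTRL. In the edgeR fit of all 9 libraries, none of the lists described here had a member that passed at 24H. With DESeq2, and in the fit without TMAO 48H replicate 1, 1 interferon-induced gene passed as lower at 24H. At 48H, 0 of 7 TRAF adaptors passed with edgeR, with log2 fold changes from -0.13 to 0.11 (1 was lower without TMAO 48H replicate 3, and 1 with DESeq2). Of 15 genes of the death receptor complex, 1 rose, XIAP, an inhibitor of caspases (log2 fold change 0.24 ± 0.0597 SE, adjusted p = 0.0237), and the median was -0.0077. XIAP did not pass without CTRL replicate 1, CTRL replicate 2 or TMAO 48H replicate 2, where 0 genes of that list passed, and 3 passed without TMAO 48H replicate 3. DESeq2 called 1 gene of that list as higher and 1 as lower. Of 22 tested NF-κB kinases, subunits and inhibitors, 4 rose and 0 fell, with a median of 0.021, near the 0.0040 of all genes (2 rose without CTRL replicate 1). Those with the smallest p-values were CYLD, a deubiquitinase that limits TNF receptor signalling (57.7 ± 1.88 to 70.3 ± 2.71 CPM, SD, n = 3, log2 fold change 0.28, adjusted p = 0.00294), and RELB, a subunit of the non-canonical NF-κB pathway (5.77 ± 0.685 to 8.79 ± 0.962 CPM, SD, n = 3, log2 fold change 0.61, adjusted p = 0.00791). NFKBIA, the NF-κB inhibitor IκBα, and CHUK, the kinase IKKα, were the other 2. In some fits 1 gene of this list passed as lower. These were DESeq2, at least 10 counts in every library, ribosomal RNA genes removed, and the fits without TMAO 24H replicate 3 or TMAO 48H replicate 1. Of 5 genes that govern shedding of TNF family proteins, RHBDF2, a partner of the TNF-releasing protease ADAM17, fell (log2 fold change -0.21, adjusted p = 0.0376). It lost the threshold in 7 of the 9 fits that left out a library, those without CTRL replicate 1 or 2, any TMAO 24H replicate or TMAO 48H replicate 1 or 2, and without TMAO 48H replicate 3 the count for that list was 2. With the replicate block, with no filter on low counts or with only the 2 groups compared, 0 genes of that list passed. DESeq2 called 2 as lower.

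FAS and TNFRSF10B are known target genes of p53, and TNFSF10 is known to be induced by interferon. Other genes of both kinds, chosen with earlier results of these data known, were read beside them. Over all tested genes, 5.13% rose and 5.29% fell at 48H. Of 20 further p53 target genes, 11 rose and 0 fell at 48H, with a median log2 fold change of 0.26. CDKN1A, an inhibitor of cyclin-dependent kinases, went from 213 ± 5.33 to 319 ± 2.64 CPM (SD, n = 3, log2 fold change 0.58, adjusted p = 2.52e-06), and ZMAT3 from 25.5 ± 2.04 to 40.01 ± 1.38 CPM (SD, n = 3, log2 fold change 0.65, adjusted p = 7.14e-05). Of 30 interferon-induced genes, 23 rose and 0 fell at 48H, with a median of 0.65, and OAS2 (log2 fold change 0.98) and IFI6 (0.76) had the smallest p-values, though not the largest changes, in this list. TNFSF10, at 0.13, lay below that median. Without TMAO 48H replicate 3 the counts were 10 and 24, and without TMAO 24H replicate 1 they were 10 and 22. The plot by list sets these genes beside the family. Whether p53 or interferon had a part in the levels of FAS, TNFRSF10B or TNFSF10 was not tested.

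**Figure D4:**
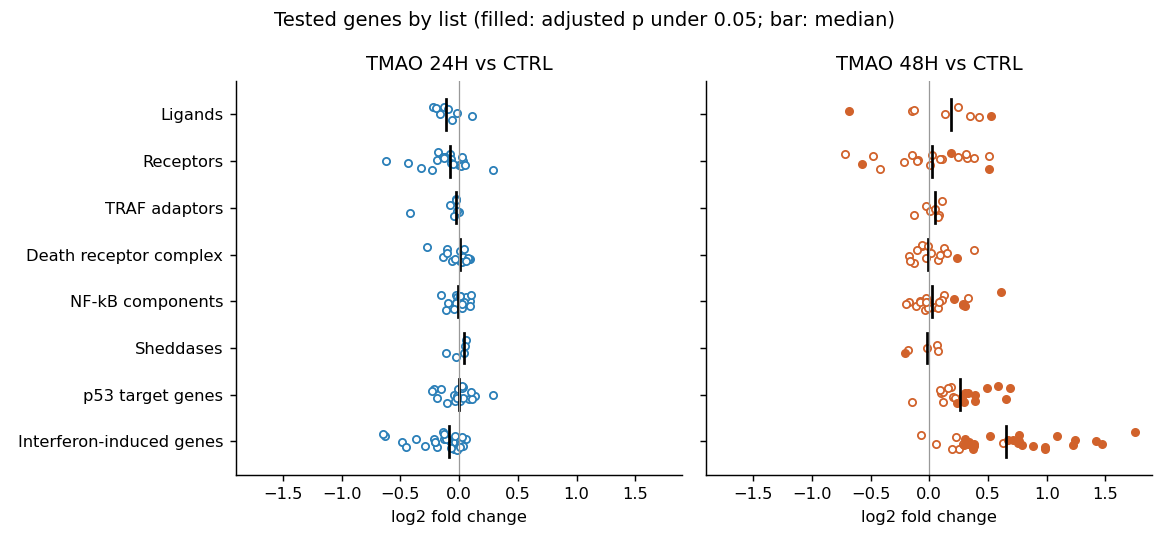
Log2 fold change against CTRL of each tested gene at TMAO 24H (left) and TMAO 48H (right), in rows for the family's ligands and receptors and for 6 lists of related genes. Points are genes (vertical scatter within a row only separates them), filled points have an adjusted p-value under 0.05, and bars mark the median, which at 48H is 0.65 for interferon-induced genes, 0.26 for p53 target genes and 0.022 for the receptors.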

How the data were processed

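Total RNA of HMEC-1 was sequenced in 9 libraries. The authors processed the reads with the nf-core RNAseq pipeline, version 3.6, and deposited estimated counts, also called expected counts, per gene symbol without normalisation. Trim Galore is named in the submitters' processing notes, and the quantifier, genome build, annotation and strand setting are not given in the sources used here. Counts are therefore placed on no coordinates, and reads of overlapping genes cannot be told apart by strand.

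Estimated counts were rounded, 14740 of 29740 genes were kept by filterByExpr, and all 9 libraries were fitted in edgeR 4.0.16 (R 4.3.3) with TMM factors and the quasi-likelihood test (glmQLFit with legacy = FALSE), with Benjamini-Hochberg adjustment over all tested genes. A gene passed, rose or fell at an adjusted p-value under 0.05. The study also required a 1.4-fold change, which is given beside this. Standard errors were derived from the F statistic, and 95% intervals from these. The common biological coefficient of variation was 0.0744. An exact permutation test of 3 libraries against 3 cannot go below p = 0.1 and was not used. The scripts were tested on simulated counts.

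The members, roles and lists were chosen with earlier results of these data known, so lists are described by counts and medians and not tested as sets. Values in each library were given for members that passed in any comparison, for the 3 ligands and 6 receptors with the highest mean level and for TNF, TNFRSF1A, TNFRSF1B, FAS, FASLG, CD40, TNFSF10, TNFRSF10A, TNFRSF10B, TNFSF15 and TNFRSF25. Those of TNFRSF19 were given in addition, outside this rule. Of other lists, up to 2 passing genes a direction with the smallest p-values were described with values. Lengths came from GENCODE 29 (43 of 43 members) and upstream sequences from RefSeq on GRCh38.p14. DESeq2 1.42.0, RLE factors, no filter, the legacy quasi-likelihood fit, a minimum of 10 counts in every library, a replicate block, removal of 23 ribosomal RNA genes, a fit of only the 2 groups compared and leaving out each library were tried as alternatives. Tables were handled in Python 3.11.15.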

Additional observations from a re-analysis of the deposited data

Results flagged for a closer look

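The difference between TMAO 48H and TMAO 24H was itself past the threshold for 2 receptors, which was the reason to look at them again. With a library left out, FAS passed in 4 of 9 fits and TNFRSF11B in 3 of 9. With the replicate block, 0 receptors passed. FAS was higher at 48H than at 24H by 0.459 on the log2 scale and TNFRSF11B by 0.629, in 3 of 3 libraries each. Against CTRL at 24H their log2 fold changes were 0.050 for FAS and -0.12 for TNFRSF11B, and neither passed. TNFRSF11B had 43 to 87 counts per library, the lowest counts among the 6 members that passed in any comparison.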

How the results depend on the processing

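At 48H against CTRL, the 2 ligands TNFSF15 and TNFSF18 and the 3 receptors FAS, TNFRSF10B and TNFRSF25 passed with DESeq2, RLE factors, no filter, the legacy fit, a minimum of 10 counts in every library, the replicate block, ribosomal RNA genes removed and only the 2 groups compared. Under the study's fold threshold of 1.4 TNFRSF10B was lost. TNFRSF10A also passed with at least 10 counts in every library (adjusted p = 0.0487) and with the legacy fit (0.0480). At 24H, 0 members passed under each of these settings. Leaving out a library gave 0 to 3 ligands and 1 to 3 receptors at 48H against CTRL, 0 to 2 ligands and 0 to 4 receptors between 48H and 24H, and 0 of either at 24H.

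Between 48H and 24H, 1 ligand passed in place of 0 with DESeq2 (TNFSF15) and, as TNFSF18, with at least 10 counts in every library, with ribosomal RNA genes removed and with only the 2 groups compared. In place of 2 receptors, 4 passed with DESeq2 (TNFRSF10B, TNFRSF12A and TNFRSF25 gained, TNFRSF11B lost) and 4 with at least 10 counts (TNFRSF10B and TNFRSF25 gained), and 1 with a 1.4-fold change. TNFRSF25 was also gained, for 3 receptors, with RLE factors, with no filter and with ribosomal RNA genes removed, and TNFRSF12A with only the 2 groups compared. The legacy fit gained TNFRSF25 (adjusted p = 0.0470) and lost TNFRSF11B (0.0601). The cause of these changes was not tested.

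Over all tested genes, 57 passed at 24H with DESeq2, 22 with only the 2 groups compared and 0 without TMAO 24H replicate 2, against 14. At 48H against CTRL, 981 passed with only the 2 groups compared, against 1536, and leaving out a library gave 0 to 24 at 24H, 700 to 1594 at 48H and 558 to 1282 between the time-points.

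The replicate number was shared by libraries of different groups in the labels without marking a common culture. After subtracting group means, the correlation across genes was -0.12 to 0.0908 in 9 pairs of libraries that share a number and -0.0996 to 0.159 in 18 pairs that do not, so the numbers were not taken to pair the libraries. With the replicate block, 0 receptors passed between 48H and 24H (FAS adjusted p = 0.0754, TNFRSF11B 0.0657). Over all tested genes, 1 passed at 24H, 944 at 48H and 730 between the time-points with the block, against 14, 1536 and 1109 without it, and 3 of the 14 endothelial markers passed as lower at 48H.

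The signs that turned belonged to differences that did not pass. With a library left out, the log2 fold change at 24H ranged from -0.017 to 0.043 for TNFRSF1A, from -0.012 to 0.17 for FAS and from -0.023 to 0.10 for TNFRSF10A. At 48H it ranged from -0.040 to 0.046 for LTBR and from -0.032 to 0.067 for TNFRSF14, and between 48H and 24H from -0.23 to 0.031 for TNFSF13 and from -0.064 to 0.0074 for TNFRSF1B. LTBR at 48H was -0.0017 with ribosomal RNA genes removed. With a library left out, signs also turned over wider ranges for 4 members, with CD70 at -0.49 to 0.24 at 24H and -0.050 to 0.55 at 48H, TNFRSF13C at -0.86 to 0.16 at 48H and -0.53 to 0.48 between the time-points, and NGFR at -0.24 to 0.18 and TNFRSF19 at -0.32 to 0.24 between the time-points. Signs turned as well for TNFSF4, TNFRSF6B, TNFRSF10C and TNFRSF10D at 24H and for TNFRSF21 between the time-points, and for NGFR between the time-points with ribosomal RNA genes removed. Precision was lowest for CD70, NGFR, TNFRSF13C and TNFRSF19, whose standard errors at 48H were 0.389 to 0.507. CD70, NGFR and TNFRSF19 had at most 20 counts in a library, and TNFRSF13C had 11 to 50 counts in the TMAO 48H libraries.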

Other observations

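The read-through gene RTEL1-TNFRSF6B, which joins the helicase gene RTEL1 to the decoy receptor TNFRSF6B, had 11.1 ± 1.87 CPM in CTRL, 8.21 ± 1.42 CPM at TMAO 24H and 7.54 ± 0.466 CPM at TMAO 48H (mean and SD of 3 libraries). RTEL1 itself had 60.3 to 63.5 CPM in CTRL and 47.2 to 63.5 CPM at TMAO 48H (log2 fold change -0.16, adjusted p = 0.229 from edgeR). CD27-AS1, the antisense partner of CD27, had 4.81 to 6.53 CPM in CTRL and 4.24 to 5.15 CPM at TMAO 48H (log2 fold change -0.32, adjusted p = 0.154), while CD27 had at most 13 counts in a library.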
